A study of Homo sapiens with 6 samples.

Results

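The 79 genes described here encode the ESCRT, VPS and sorting nexin (SNX) proteins, the machinery that sorts membrane receptors inside endosomes. They were taken from the 26485 gene rows of the deposited count table by symbol: VPS, CHMP or SNX followed by a number, and TSG101, HGS, STAM, STAM2 and PDCD6IP. Rows of 3 pseudogenes and 2 antisense transcripts that match these names were left out. The RNA was taken from cultured PC-9, an established human line of lung adenocarcinoma with mutant EGFR. The shIFITM3 samples stably express a short hairpin RNA against IFITM3, and the shControl samples a control shRNA, with 3 biological replicates in each group per the labels. The count columns name the control ShEV, so a control hairpin and an empty vector cannot be told apart, and the number of hairpins or of cell clones was not given in the sources used here. All 6 cultures were grown in RPMI with serum, and the labels name no drug.

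Endosomes decide whether a receptor taken up from the cell surface returns to it or is destroyed. The ESCRT complexes act in order on receptors tagged with ubiquitin: ESCRT-0 and ESCRT-I gather them, ESCRT-II hands them on, and filaments of ESCRT-III, built from CHMP proteins, pinch off vesicles into the endosome, after which the ATPase VPS4 takes the filaments apart. EGFR and MET are classical cargoes of this route. Retromer, made of VPS26, VPS29 and VPS35, and the sorting nexins, which bind endosomal phosphoinositide lipids, carry other proteins back. IFITM3 is itself a membrane protein of late endosomes that restricts virus entry.

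Total counts were between 21965506 and 23852371 in shIFITM3 and were 21342028, 77228760 and 27493145 in shControl replicates 1, 2 and 3. Levels are CPM, read counts scaled to the TMM-adjusted library size, and fold changes are shIFITM3 over shControl. Levels compared between genes are divided by exon length, in CPM per kilobase. The hairpin target IFITM3 (chromosome 11, 319676 to 320860, GRCh38) had 10.4, 12.9 and 9.75 CPM in the shIFITM3 replicates and 57, 60.5 and 62.8 CPM in the shControl replicates. The 3 shIFITM3 samples were all below the 3 shControl samples (log2 fold change -2.45, SE 0.0794, edgeR quasi-likelihood test, adjusted p = 5.97e-18). All 5 epithelial markers checked (EPCAM, CDH1, KRT8, KRT18 and KRT19) were expressed, with sums of 5554 to 5774 CPM in shIFITM3 and 7036 to 7116 CPM in shControl. KRT8, KRT18 and CDH1 fell, EPCAM rose slightly and KRT19 did not pass. The lung adenocarcinoma lineage markers NKX2-1, NAPSA and SFTPB were too low to be tested. Of 8 markers of leukocytes, endothelium and fibroblasts, 5 were too low to be tested, DCN was at 0 in every library, and their sum was 13.2 to 17.3 CPM in shIFITM3 and 12.4 to 14.9 CPM in shControl. The 3 tested ones were CDH5 and COL1A1, which rose, and PECAM1, which fell. The part of these markers in the results was not tested. The counts come from bulk RNA, so a lower level per cell and fewer cells with the transcript cannot be told apart.

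Most endosomal sorting genes differed little between shIFITM3 and shControl, and a few differed by 1.5-fold or more. Of the 79 genes, 74 had enough counts to be tested. In shIFITM3, 24 rose and 14 fell at an adjusted p under 0.05, which is 32.4% and 18.9% of those tested. Across all 14018 tested genes 27.7% rose and 28.4% fell, so 51.4% of the members were called beside 56.1% of all genes. In 36 members, or 48.6%, no sample of one group reached the CPM of the other, beside 60.9% of all tested genes. The median absolute log2 fold change was 0.16 in the members and 0.25 in all tested genes. Changes of at least 1.5-fold that passed the test were 4 rises (SNX9, SNX8, CHMP4C and CHMP1B), whereas 10.8% of all tested genes rose by that much. The lowest log2 fold change among members was -0.52 (SNX5), so no member fell by 1.5-fold, beside 5.15% of all genes. Tested against a 1.2-fold change (edgeR glmTreat), 11 of the 74 members rose and 3 fell, beside 3498 of all 14018 genes called in either direction. The calls of SNX7, VPS26A, SNX6, VPS9D1, CHMP2A and VPS28 were lost in DESeq2. Each was also lost when certain single libraries were left out, as given below. With upper-quartile scaling SNX7 and VPS26A were lost, and with total-count scaling SNX6 and VPS28. The strict filter lost SNX6, CHMP2A and VPS28, and limma-voom lost SNX6 and VPS9D1.

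**Figure D1:**
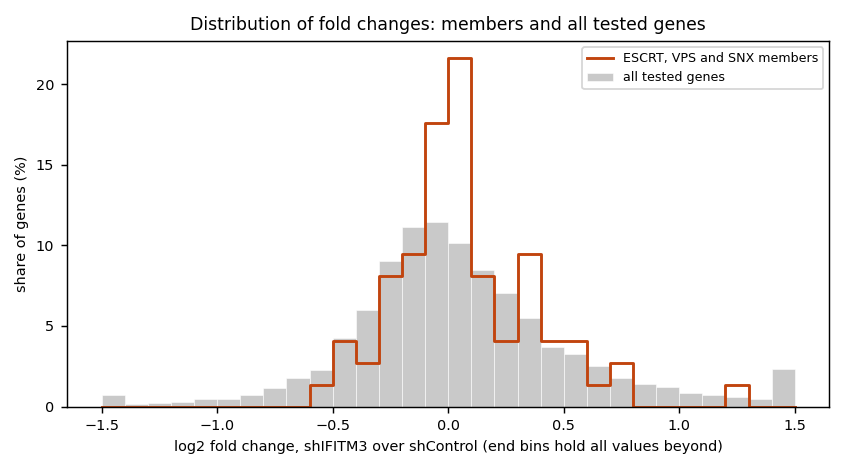
Share of genes (vertical axis, %) by log2 fold change of shIFITM3 over shControl (horizontal axis, bins of 0.1) for the 74 tested members (red line) and all 14018 tested genes (grey bars). The members crowd around 0, and none lies below -0.52 or above 1.25.

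By family, the 4 rises of at least 1.5-fold were in sorting nexins and CHMP genes. Of 25 tested sorting nexins 10 rose and 6 fell, and their absolute log2 fold changes had a median of 0.23. Of 11 CHMP genes 4 rose and 3 fell, also with a median of 0.23. Of 33 VPS genes 7 rose and 5 fell, with a median of 0.087. Thus 64% of the sorting nexins, 63.6% of the CHMP genes and 36.4% of the VPS genes were called, beside 56.1% of all tested genes. The level summed over all 79 genes was 4847, 4753 and 4878 CPM in shIFITM3 replicates 1, 2 and 3 and 4460.0, 4499 and 4490.1 CPM in shControl replicates 1, 2 and 3. These sums do not overlap, with means of 4826 ± 64.8 and 4483 ± 20.3 CPM (SD, n = 3 each), and without SNX9 they were 4699 ± 57.3 and 4429.7 ± 17.3 CPM. Abundant genes weigh most in such sums. Among the rises, HGS and SNX8 had means of 239 and 160 CPM in shIFITM3 and 177 and 92.3 CPM in shControl. The median log2 fold change of the tested members was 0.03.

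The largest change was that of SNX9 (chromosome 6, 157823246 to 157945077), whose product bends membrane and binds dynamin during clathrin-mediated uptake. SNX9 had 129, 119 and 134 CPM in the shIFITM3 replicates and 49.6, 54.8 and 55.6 CPM in the shControl replicates, so its level was 2.38 times the control level (log2 fold change 1.25, SE 0.0509, edgeR adjusted p = 5.23e-16). The next was SNX8 (chromosome 7, 2251770 to 2354497), a BAR-domain nexin of early endosomes. It had 167, 155 and 158 CPM in shIFITM3 and 90.0, 94.9 and 92 CPM in shControl, 1.73 times the control level (log2 fold change 0.79, SE 0.0414, edgeR adjusted p = 6.41e-14). In both genes every shIFITM3 sample was above every shControl sample. At the other end was SNX5 (chromosome 20, 17941600 to 17968794), a BAR-domain nexin that carries cargo from endosomes to the Golgi. Its level was 104, 96.7 and 105 CPM in shIFITM3 and 151, 142 and 148 CPM in shControl, with no overlap (log2 fold change -0.52, SE 0.0422, edgeR adjusted p = 1.76e-10). SNX5 exons share bases with MGME1 on the opposite strand and with OVOL2, and the sources used here do not give the strand setting of the counting.

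**Figure D2:**
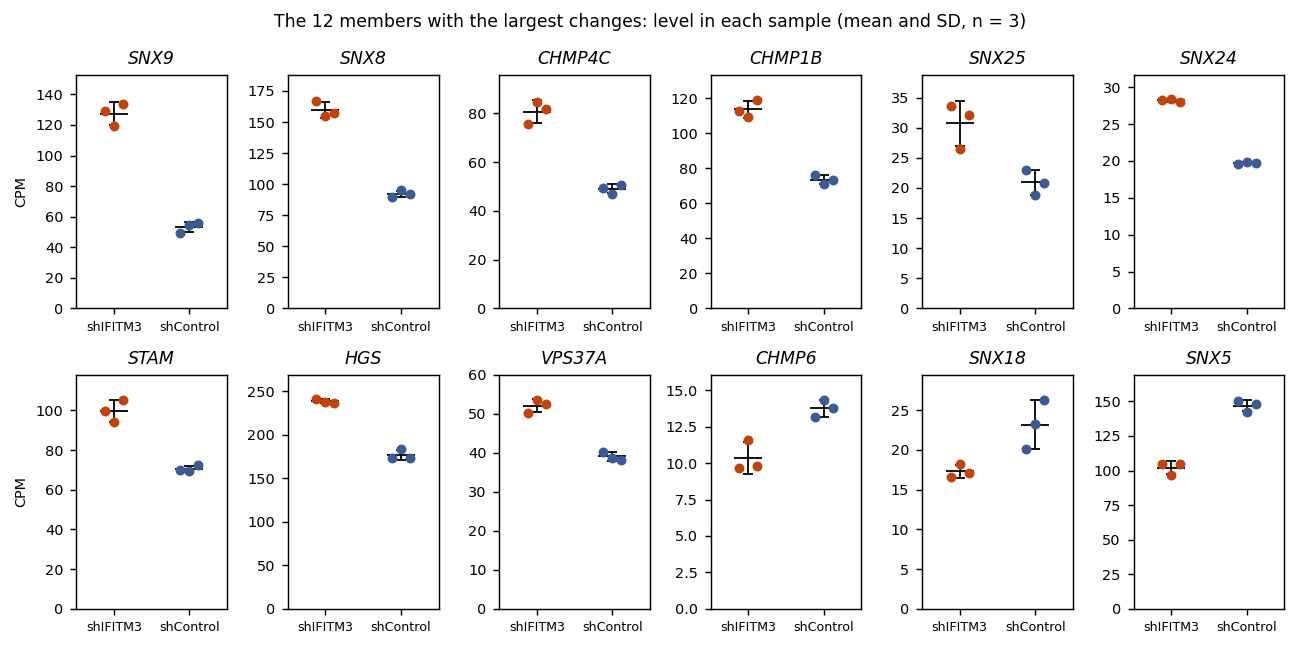
Level in each sample (vertical axis, CPM, from 0) of the 12 members with the largest absolute fold changes, shIFITM3 left and shControl right in each panel; points are samples, the short line is the mean and the bar 1 SD (n = 3). The groups are separate in all 12 panels, 9 with shIFITM3 above and 3 (CHMP6, SNX18 and SNX5) with shIFITM3 below. The 12 were chosen by adjusted p and fold change in these same samples, so the separation follows largely from that choice. Of all tested genes 60.9% had groups that do not overlap.

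The sequences before the start of these 3 genes, of SNX18 (a relative of SNX9 that fell) and of CHMP1B (the ESCRT-III gene that rose with the smallest p) are given to show the DNA next to some of the members with clear changes in either direction. Each is the 250 bases before a gene start in RefSeq (GRCh38.p14), 5′ to 3′ on the gene's strand. Capitals mark a match to CACGTG (the E-box, core of the CLEAR element that TFEB binds in lysosomal genes) or TGACGTCA (the cyclic AMP response element). SNX8 has its window inside the RefSeq span of the gene. The bases that follow the SNX9 start were not found in a GENCODE 29 transcript of SNX9, whereas those of the other printed genes were.
SNX9, chr6:157822996-157823245, + strand: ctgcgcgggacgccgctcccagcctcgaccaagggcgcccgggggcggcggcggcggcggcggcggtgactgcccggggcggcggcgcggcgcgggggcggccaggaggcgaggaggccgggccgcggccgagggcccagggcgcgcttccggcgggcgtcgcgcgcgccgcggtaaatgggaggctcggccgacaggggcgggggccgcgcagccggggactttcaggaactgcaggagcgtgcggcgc
SNX8, chr7:2314442-2314691, - strand: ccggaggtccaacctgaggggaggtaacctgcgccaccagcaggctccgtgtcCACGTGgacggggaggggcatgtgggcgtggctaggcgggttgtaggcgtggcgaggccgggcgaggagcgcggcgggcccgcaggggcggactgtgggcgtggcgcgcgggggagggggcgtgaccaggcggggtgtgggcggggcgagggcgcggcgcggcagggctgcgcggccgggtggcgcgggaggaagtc
SNX5, chr20:17968795-17969044, - strand: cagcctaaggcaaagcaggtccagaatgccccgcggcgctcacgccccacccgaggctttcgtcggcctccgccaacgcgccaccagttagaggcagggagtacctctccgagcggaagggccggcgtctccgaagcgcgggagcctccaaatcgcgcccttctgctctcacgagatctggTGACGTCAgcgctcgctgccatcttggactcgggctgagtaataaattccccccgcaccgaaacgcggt
SNX18, chr5:54517509-54517758, + strand: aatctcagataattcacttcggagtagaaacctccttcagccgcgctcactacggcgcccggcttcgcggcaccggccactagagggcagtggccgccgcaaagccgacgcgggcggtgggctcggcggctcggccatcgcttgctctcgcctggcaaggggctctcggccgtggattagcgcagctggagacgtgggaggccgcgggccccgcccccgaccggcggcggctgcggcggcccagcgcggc
CHMP1B, chr18:11851163-11851412, + strand: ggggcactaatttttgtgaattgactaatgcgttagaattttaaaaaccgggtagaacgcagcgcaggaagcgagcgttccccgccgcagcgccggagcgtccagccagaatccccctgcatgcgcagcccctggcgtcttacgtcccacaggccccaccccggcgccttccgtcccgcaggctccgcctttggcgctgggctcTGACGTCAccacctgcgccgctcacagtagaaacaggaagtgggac
Matching by symbol, 58 of the 79 members had such a window. On both strands CACGTG was found before 7 of them, or 12.1%, beside 7.73% of all genes with a window, and TGACGTCA before 3 (CHMP1B, SNX5 and VPS37B), or 5.17% beside 2.03%. The sterol element core TCACNCCAC was before 0 of 58 members and 1.09% of all genes, and the AP-1 site TGACTCA before 1 (SNX10), 1.72% beside 5.19%. The 27305 genes with a window were not limited to genes tested here and were not matched to the members for base content. The shares therefore compare unlike sets. The searched motifs do not contain each other. TGACGTCA stands before both CHMP1B, which rose, and SNX5, which fell.

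ESCRT-0 and ESCRT-I, the complexes that recognise ubiquitin on cargo, held mostly rises. Of the 3 ESCRT-0 genes 66.7% rose, beside 27.7% of all tested genes. In ESCRT-0, HGS, the scaffold that binds both ubiquitin and endosomal lipid, had 241, 238 and 237 CPM in shIFITM3 and 173, 184 and 174 CPM in shControl (log2 fold change 0.43, SE 0.0351, edgeR adjusted p = 2.4e-10). Its partner STAM had 99.8, 94.3 and 105 CPM in shIFITM3 and 70.0, 69.4 and 72.3 CPM in shControl (log2 fold change 0.50, SE 0.0467, edgeR adjusted p = 2.28e-09). For both genes the samples of the groups lie apart. The related STAM2 was at 27.4 ± 0.612 and 28.4 ± 1.08 CPM in shIFITM3 and shControl and did not pass (log2 fold change -0.05, edgeR adjusted p = 0.539). Summed over the 3 genes, ESCRT-0 was at 366 ± 5.86 CPM in shIFITM3 and 276 ± 5.02 CPM in shControl (SD, n = 3 each). HGS shares exon bases with ARL16 on the opposite strand.

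Of 6 ESCRT-I genes 4 rose and 1 fell, or 83.3% called beside 56.1% of all tested genes. TSG101, the subunit that binds ubiquitin, had 114, 111 and 113 CPM in shIFITM3 and 89.8, 90.2 and 90.6 CPM in shControl, a narrow spread within each group (log2 fold change 0.32, SE 0.0401, edgeR adjusted p = 3.36e-07). The subunit VPS37 is made from 4 genes, of which 3 rose. VPS37A had 50.3, 53.6 and 52.5 CPM in shIFITM3 and 40.3, 38.7 and 38.3 CPM in shControl (log2 fold change 0.42), and VPS37C and VPS37B changed by 0.41 and 0.33 on the log2 scale (edgeR adjusted p of at most 2.16e-06 for the 3). VPS37D was low at 2.04 ± 0.134 CPM in shIFITM3 and 1.54 ± 0.268 CPM in shControl and did not pass (edgeR adjusted p = 0.197), although its groups do not overlap. VPS28, which joins TSG101 to ESCRT-II, fell slightly, with 42.4, 41.8 and 37.9 CPM in shIFITM3 and 45.5, 44.6 and 44.7 CPM in shControl (log2 fold change -0.14, edgeR adjusted p = 0.0382). That call was lost when shControl replicate 1, 2 or 3 or shIFITM3 replicate 3 was left out (edgeR adjusted p = 0.0745, 0.0813, 0.0698 and 0.208). VPS37A overlaps CNOT7 and MTMR7, and TSG101 overlaps LDHAL6A, on opposite strands.

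Neither ESCRT-II gene among the members passed. VPS25 had 45.8, 48.8 and 49.2 CPM in shIFITM3 and 44.7, 47.5 and 45.6 CPM in shControl, and VPS36 had 60.3, 59 and 57.2 CPM in shIFITM3 and 56.1, 58.1 and 56.1 CPM in shControl. The groups overlap in both genes. Their log2 fold changes were 0.06 (SE 0.0537) and 0.05 (SE 0.0485). Of these 2 genes 0 passed in edgeR, DESeq2 or limma-voom, and 0 had an unadjusted p under 0.05 in edgeR.

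ESCRT-III split, with 4 of 11 genes higher, 3 lower and 4 that did not pass, or 63.6% called beside 56.1% of all tested genes. The filament gene CHMP4C, whose product also acts in the checkpoint that delays the final cut of cell division, had 75.6, 84.6 and 81.9 CPM in shIFITM3 and 49.5, 47 and 50.6 CPM in shControl (log2 fold change 0.72, SE 0.0516, edgeR adjusted p = 2.02e-11). It overlaps ZFAND1 on the opposite strand. CHMP1B, whose promoter is printed above and whose product forms filaments with IST1, had 113, 109 and 119 CPM in shIFITM3 and 76.3, 71.3 and 73.3 CPM in shControl (log2 fold change 0.63, SE 0.045, edgeR adjusted p = 1.85e-11). No sample of one group reached the other group in either gene. CHMP2B, whose product helps recruit VPS4, was at 99.9 ± 4.23 CPM in shIFITM3 and 76.5 ± 1.8 CPM in shControl (log2 fold change 0.39), and CHMP5 rose by 0.21 on the same scale. The falls were CHMP6, which starts the filament from ESCRT-II, with 9.63, 11.6 and 9.83 CPM in shIFITM3 and 13.2, 14.3 and 13.8 CPM in shControl (log2 fold change -0.42, SE 0.102, edgeR adjusted p = 0.00125), CHMP4A (-0.33) and CHMP2A (-0.16). The CHMP2A call was lost without shIFITM3 replicate 2, shControl replicate 1 or shControl replicate 2 (edgeR adjusted p = 0.353, 0.101 and 0.0903).

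The most abundant CHMP genes were among those that did not pass. Per kilobase of exon, CHMP4B was at 137 CPM per kilobase in shIFITM3 and 133 CPM per kilobase in shControl, the highest level of all tested members, followed within ESCRT-III by CHMP1A at 59 in shIFITM3 and 57.7 in shControl. CHMP4B had 229, 223 and 227 CPM in shIFITM3 and 211, 232 and 212 CPM in shControl, ranges that overlap (log2 fold change 0.05, edgeR adjusted p = 0.3). Of the alternatives tried, CHMP4B passed in 1, without shControl replicate 2 (log2 fold change 0.10, edgeR adjusted p = 0.0426). CHMP7, which acts at the nuclear envelope, was at -0.10 on the log2 scale and did not pass (edgeR adjusted p = 0.107). CHMP3 had 0.545, 1.04 and 1.3 CPM in shIFITM3 and 0.471, 1.2 and 1.64 CPM in shControl, but its exons are shared with the read-through gene RNF103-CHMP3, whose own row held at most 9 counts, so its level is uncertain. Summed over its 11 genes, ESCRT-III was at 908 ± 17.8 CPM in shIFITM3 and 811 ± 7.24 CPM in shControl (SD, n = 3 each), ranges that do not overlap.

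The genes of VPS4 and ALIX had small differences. VPS4B rose slightly, with 89.8, 86.2 and 86.9 CPM in shIFITM3 and 81.7, 75.4 and 78 CPM in shControl (log2 fold change 0.17, SE 0.045, edgeR adjusted p = 0.00308). VPS4A was at 128 ± 6.08 CPM in shIFITM3 and 133 ± 4.85 CPM in shControl and did not pass (-0.06), and it overlaps COG8 on the opposite strand. PDCD6IP, the gene of ALIX, which brings CHMP4 filaments to membranes, had 183, 175 and 187 CPM in shIFITM3 and 171, 177 and 170.2 CPM in shControl. It did not pass (log2 fold change 0.07, edgeR adjusted p = 0.119), except without shIFITM3 replicate 2 (log2 fold change 0.094, edgeR adjusted p = 0.0411). Over all 25 ESCRT genes 11 rose and 4 fell, or 60% called beside 56.1% of all genes.

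**Figure D3:**
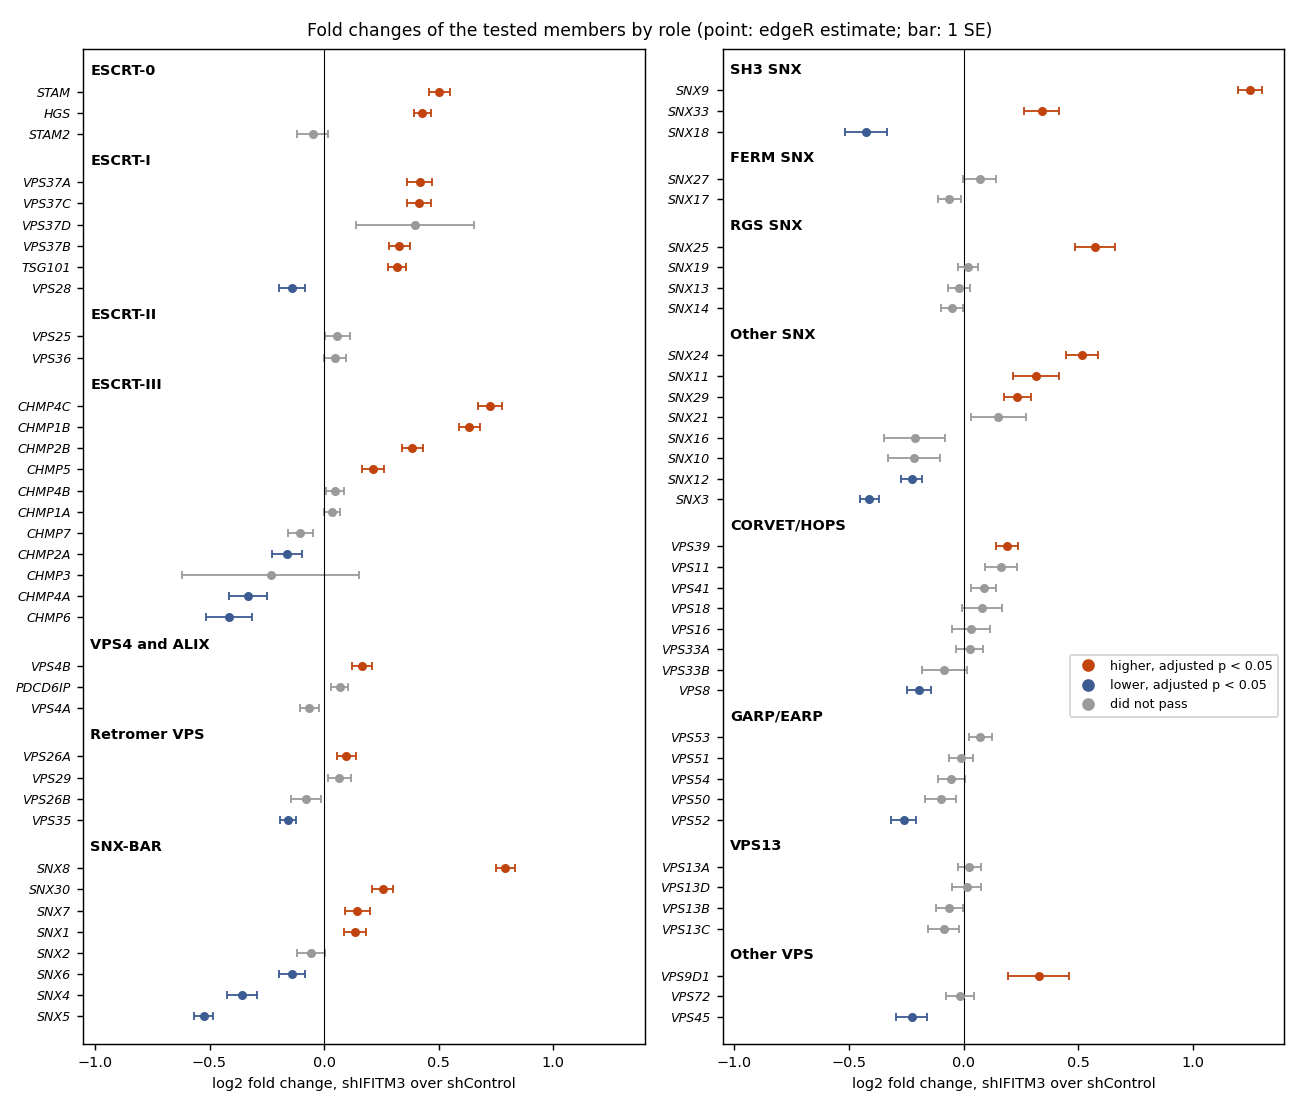
Log2 fold change of shIFITM3 over shControl (horizontal axis) for each of the 74 tested members, grouped by role; points are edgeR estimates, bars 1 SE, red and blue mark members higher and lower at adjusted p under 0.05. ESCRT-0, ESCRT-I and ESCRT-III hold most of the ESCRT rises, and the points of the VPS13 and GARP/EARP genes lie near 0, apart from VPS52 at -0.26.

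The retromer core changed by little. Of its 4 genes 1 rose and 1 fell, or 50% called beside 56.1% of all tested genes. VPS35, the scaffold, fell by 0.16 on the log2 scale, with 153, 153 and 152 CPM in shIFITM3 and 174, 166 and 172 CPM in shControl, and no overlap (SE 0.0363, edgeR adjusted p = 0.000673). VPS26A had 167, 168 and 184 CPM in shIFITM3 and 161, 157 and 167 CPM in shControl, with overlap, and passed narrowly (log2 fold change 0.10, edgeR adjusted p = 0.0488). It no longer passed without shControl replicate 1, shControl replicate 2 or shIFITM3 replicate 3 (edgeR adjusted p = 0.0889, 0.179 and 0.361). VPS29 (0.07) and VPS26B (-0.08) did not pass. The 4 genes summed to 420.5 ± 9.5 CPM in shIFITM3 and 427 ± 12 CPM in shControl (SD, n = 3 each), and these sums overlap.

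The sorting nexins with a BAR domain but no SH3 domain form tubules on endosomes. In this class 4 of 8 tested genes rose and 3 fell. That is 87.5% called, beside 56.1% of all tested genes. SNX8 and SNX5, given above, were the extremes of this class. SNX1 or SNX2 pairs with SNX5 or SNX6 to make a coat for retrieval to the Golgi. Of these 4, SNX5 and SNX6 (-0.14) fell, SNX1 rose (0.13) and SNX2 (-0.06) did not pass. Their summed level was 269, 257 and 278 CPM in shIFITM3 and 318, 304 and 321 CPM in shControl, with every shIFITM3 sum below every shControl sum. Most of this difference was that of SNX5, with means of 102 CPM in shIFITM3 and 147 CPM in shControl. The means in shIFITM3 and shControl were 57.6 and 64 CPM for SNX6, 36.2 and 37.6 CPM for SNX2 and 72.2 and 65.7 CPM for SNX1. Leaving out shControl replicate 1 or 3, or shIFITM3 replicate 1 or 2, ended the SNX6 call, in which the groups overlap (edgeR adjusted p = 0.186, 0.112, 0.0609 and 0.126). Leaving out shControl replicate 1 or 2, or shIFITM3 replicate 3, ended the SNX1 call (edgeR adjusted p = 0.08, 0.0553 and 0.15).

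SNX4 pairs with SNX7 or SNX30 in recycling to the cell surface and in autophagy. SNX4 had 30.1, 28.3 and 29.9 CPM in shIFITM3 and 36.1, 36.6 and 40.5 CPM in shControl, with no overlap (log2 fold change -0.36, SE 0.0644, edgeR adjusted p = 4.53e-05). Both partners rose, with SNX30 at 71.9, 71.3 and 76.4 CPM in shIFITM3 and 59, 62.1 and 62.5 CPM in shControl (log2 fold change 0.26, edgeR adjusted p = 7.51e-05) and SNX7 at 45.2 ± 1.44 CPM in shIFITM3 and 40.9 ± 0.777 CPM in shControl (0.14, edgeR adjusted p = 0.0265). Leaving out shControl replicate 1 or 2, or shIFITM3 replicate 1 or 3, ended the SNX7 call (edgeR adjusted p = 0.0587, 0.0738, 0.096 and 0.0739). SNX8 shares exon bases with a microRNA row, MIR6836, and SNX30 with SLC46A2 on the opposite strand. In SNX7 too the groups lie apart.

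All 3 nexins with an SH3 domain, which act at the plasma membrane with dynamin and actin, were called, beside 56.1% of all tested genes. SNX9 rose as given above and SNX33 rose with it, at 38.7, 46.8 and 41.1 CPM in shIFITM3 and 29.2, 33.4 and 36.9 CPM in shControl (log2 fold change 0.34, SE 0.0757, edgeR adjusted p = 0.000489). SNX18 fell, with 16.6, 18.2 and 17.2 CPM in shIFITM3 and 20.1, 23.2 and 26.3 CPM in shControl (log2 fold change -0.43, SE 0.0901, edgeR adjusted p = 0.000294). The groups do not overlap in any of the 3, beside 60.9% of all tested genes without overlap. The shControl values of SNX18 are spread. SNX33 overlaps IMP3 on the opposite strand. Per kilobase of exon, SNX9 was at 27.4 CPM per kilobase in shIFITM3 and 11.5 in shControl, SNX18 at 2.6 in shIFITM3 and 3.49 in shControl, and SNX33 at 5.27 in shIFITM3 and 4.14 in shControl. The 3 genes summed to 184, 184 and 192 CPM in shIFITM3 and 98.9, 111 and 119 CPM in shControl. Without SNX9, the other two summed to 55.3, 65 and 58.2 CPM in shIFITM3 and 49.3, 56.7 and 63.1 CPM in shControl, sums that overlap (ratio of the means 1.06).

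The remaining nexins, most of them little more than a lipid-binding PX domain, changed both ways, with 3 of 8 tested genes higher and 2 lower. That is 62.5% called, beside 56.1% of all tested genes. SNX3, an adaptor of retromer that retrieves the Wnt carrier Wntless, had 86.2, 85.9 and 92.1 CPM in shIFITM3 and 114, 121 and 116 CPM in shControl (log2 fold change -0.41, SE 0.0434, edgeR adjusted p = 2.01e-08). Its close relative SNX12 fell too, with 71.8, 66.5 and 69.8 CPM in shIFITM3 and 81.3, 82.1 and 79.9 CPM in shControl (log2 fold change -0.23, edgeR adjusted p = 0.000169). Neither gene's groups overlap. SNX24 had 28.3, 28.3 and 28 CPM in shIFITM3 and 19.6, 19.9 and 19.7 CPM in shControl, with no overlap (log2 fold change 0.52, SE 0.0696, edgeR adjusted p = 9.77e-07), and it shares exon bases with PPIC on the opposite strand. SNX29 (0.23) and SNX11 (0.32) also rose, the call of SNX11 being lost without shControl replicate 2 or shIFITM3 replicate 1 (edgeR adjusted p = 0.071 and 0.0694). SNX10 (-0.22), SNX16 (-0.21) and SNX21 (0.15) did not pass, apart from SNX10 without a count filter (edgeR adjusted p = 0.0464) and without shIFITM3 replicate 2 (edgeR adjusted p = 0.0472).

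SNX25 was the 1 called gene among 4 nexins of the RGS subfamily, large proteins linked to the endoplasmic reticulum. That is 25% called, beside 56.1% of all tested genes. SNX25 rose. It had 33.7, 26.5 and 32.1 CPM in shIFITM3 and 23, 18.9 and 20.8 CPM in shControl, with no overlap (log2 fold change 0.57, SE 0.0876, edgeR adjusted p = 5.61e-06), and shares exon bases with LRP2BP on the opposite strand. SNX19 had 99.7, 92.1 and 91.6 CPM in shIFITM3 and 90.9, 93.2 and 95.3 CPM in shControl (0.02), and SNX13 (-0.02) and SNX14 (-0.05) did not pass either. SNX17, which returns integrins and LDL receptor relatives to the surface, had 62.8, 69 and 63.1 CPM in shIFITM3 and 65.3, 68.3 and 69.7 CPM in shControl. The groups overlap, and neither SNX17 (-0.06) nor SNX27 (0.07), which recognises cargo through a PDZ domain, passed. In this pair 0 genes passed in edgeR, DESeq2 or limma-voom, and 0 had an unadjusted p under 0.05 in edgeR.

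The tethering complexes that dock endosomes and lysosomes held few calls. Of 8 genes of CORVET, HOPS and their relatives, VPS39 rose and VPS8 fell, or 25% called beside 56.1% of all tested genes. VPS39, a subunit of the late-endosomal complex HOPS, had 62.7, 69 and 66.9 CPM in shIFITM3 and 56.8, 58.8 and 58.3 CPM in shControl (log2 fold change 0.19, SE 0.0493, edgeR adjusted p = 0.00221). VPS8, a subunit of the early-endosomal complex CORVET, had 48.1, 51.3 and 53 CPM in shIFITM3 and 57.9, 58.3 and 58.3 CPM in shControl (log2 fold change -0.20, SE 0.051, edgeR adjusted p = 0.0022). Neither gene's groups overlap. The HOPS subunit VPS41 had 76, 64.9 and 76.6 CPM in shIFITM3 and 69.2, 68.1 and 67.5 CPM in shControl and did not pass (log2 fold change 0.09, edgeR adjusted p = 0.18), except without shIFITM3 replicate 2 (log2 fold change 0.16, edgeR adjusted p = 0.0073). The shared core genes VPS11, VPS16, VPS18 and VPS33A had log2 fold changes of 0.16, 0.03, 0.08 and 0.03, and VPS33B had -0.08. VPS11 lay near the threshold (edgeR adjusted p = 0.0548) and passed without shIFITM3 replicate 1 (0.22, edgeR adjusted p = 0.0176). It also passed with RLE or total-count scaling, the strict filter, limma-voom, the replicate block and the thinned library. In DESeq2 and with upper-quartile scaling it did not pass.

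Of the 5 GARP and EARP genes, which tether vesicles at the Golgi and at recycling endosomes, only VPS52 was called, and it fell. That is 20% called, beside 56.1% of all tested genes. VPS52 had 48.8, 43.2 and 44.1 CPM in shIFITM3 and 55.7, 54.3 and 53.2 CPM in shControl (log2 fold change -0.26, SE 0.055, edgeR adjusted p = 0.000274). VPS51 had 91.8, 98.7 and 83.1 CPM in shIFITM3 and 88.2, 92.7 and 94.5 CPM in shControl (log2 fold change -0.01), and VPS50, VPS53 and VPS54 were between -0.10 and 0.07. VPS52 overlaps the ribosomal gene RPS18 on the opposite strand. The 4 VPS13 genes, which encode bridges that move lipid between membranes, had log2 fold changes between -0.09 and 0.02. VPS13A, the highest per kilobase of the 4 at 3.95 and 3.9 CPM per kilobase in shIFITM3 and shControl, had 78.2, 78.1 and 83 CPM in shIFITM3 and 85, 76.7 and 74.4 CPM in shControl. VPS13C had 44.2, 37 and 44.3 CPM in shIFITM3 and 47.7, 45 and 40.6 CPM in shControl. Of the VPS13 genes 0 passed in edgeR, DESeq2 or limma-voom, and 0 had an unadjusted p under 0.05 in edgeR.

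The other 3 genes with a VPS symbol act elsewhere or are less well placed. VPS45, a partner of SNARE proteins in fusion, fell, with 24, 27.3 and 25 CPM in shIFITM3 and 28.5, 30.7 and 29.9 CPM in shControl (log2 fold change -0.23, SE 0.0696, edgeR adjusted p = 0.00766). Without shControl replicate 2 it missed the threshold (edgeR adjusted p = 0.0521). VPS9D1, whose level was low, rose, at 8.59 ± 1.21 CPM in shIFITM3 and 6.73 ± 0.87 CPM in shControl (log2 fold change 0.33, edgeR adjusted p = 0.0388). Its groups overlap, it has an antisense row, and the call was lost without shControl replicate 1 or 3 or shIFITM3 replicate 1 or 3 (edgeR adjusted p = 0.137, 0.0582, 0.115 and 0.173) and with the replicate number as a block (0.052). VPS72, a chromatin protein despite its name, had 36.4, 37 and 40.6 CPM in shIFITM3 and 37.7, 37.8 and 39.7 CPM in shControl (-0.01).

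**Figure D4:**
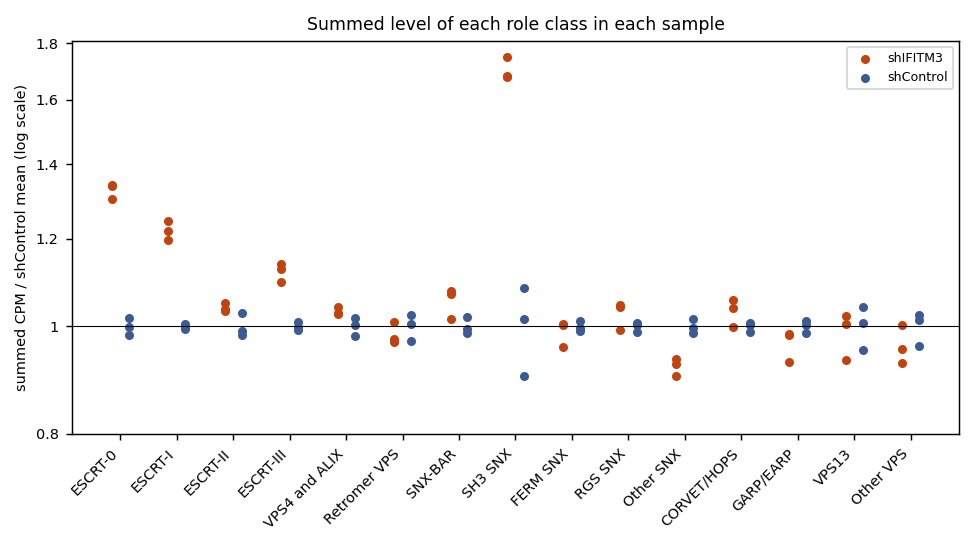
Summed CPM of each role class in each sample, divided by the class's shControl mean (vertical axis, log scale), with shIFITM3 left of shControl. The SH3 nexins stand highest at 1.70 times the shControl mean, or 1.06 times without SNX9, followed by ESCRT-0 at 1.33, ESCRT-I at 1.22 and ESCRT-III at 1.12.

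The 5 members too low to be tested were SNX15, SNX20, SNX22, SNX31 and SNX32. SNX15 was at 0 in all 6 libraries, which allows up to 3 counts or 0.0388 to 0.141 CPM a library. Its exons are shared with the read-through gene ARL2-SNX15, whose row held at most 1 count, so its level is uncertain. SNX22 reached 28 counts in 1 library, and the other 3 reached at most 6. By the mean of both groups, the levels per kilobase of tested members ran from CHMP4B at the top, through CHMP1A, SNX3 (47.8 CPM per kilobase in shIFITM3 and 63.4 in shControl) and VPS26A (48.5 in shIFITM3 and 45.4 in shControl), to CHMP3 at the bottom (0.137 in shIFITM3 and 0.157 in shControl). In shControl SNX3 was above both CHMP1A and VPS26A, whereas in shIFITM3 it was below CHMP1A, and the SNX3 and VPS26A levels per kilobase there lay within their spread of each other (SDs of 1.89 and 2.7).

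The balance between related genes, not all of which act at the same step, is shown by their ratio within each sample. The log2 ratio of CPM within 15 pairs was computed in each sample, which leaves out the effect of library scaling. The ratio of SNX9 to SNX18 was 2.96, 2.71 and 2.96 in the shIFITM3 replicates and 1.3, 1.24 and 1.08 in the shControl replicates, a difference of 1.67. That of CHMP4B to CHMP4C was 1.6, 1.4 and 1.47 in shIFITM3 and 2.09, 2.3 and 2.07 in shControl, a difference of -0.66, with every shIFITM3 ratio below every shControl ratio. CHMP1A to CHMP1B differed by -0.60, CHMP2A to CHMP2B by -0.55, STAM to STAM2 by 0.55 and SNX5 to SNX6 by -0.38. In these 6 pairs, and in CHMP4A to CHMP4B (-0.38), VPS4A to VPS4B (-0.22), SNX1 to SNX2 (0.19) and SNX3 to SNX12 (-0.18), the groups did not overlap. Each of these 10 had an exact permutation p of 0.1 (two-sided), the smallest that 3 samples against 3 allow, and 0.15 after Benjamini-Hochberg adjustment over the 15 pairs. That p is fixed once the groups do not overlap. The pairs were chosen with earlier results known and hold genes already called above, so it adds no separate support. In the other 5 pairs, VPS26A/VPS26B, VPS33A/VPS33B, VPS37A/VPS37B, VPS37B/VPS37C and VPS13A/VPS13C, the groups overlapped, with differences between -0.08 and 0.17 and exact p of 0.2 or 0.3.

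**Figure D5:**
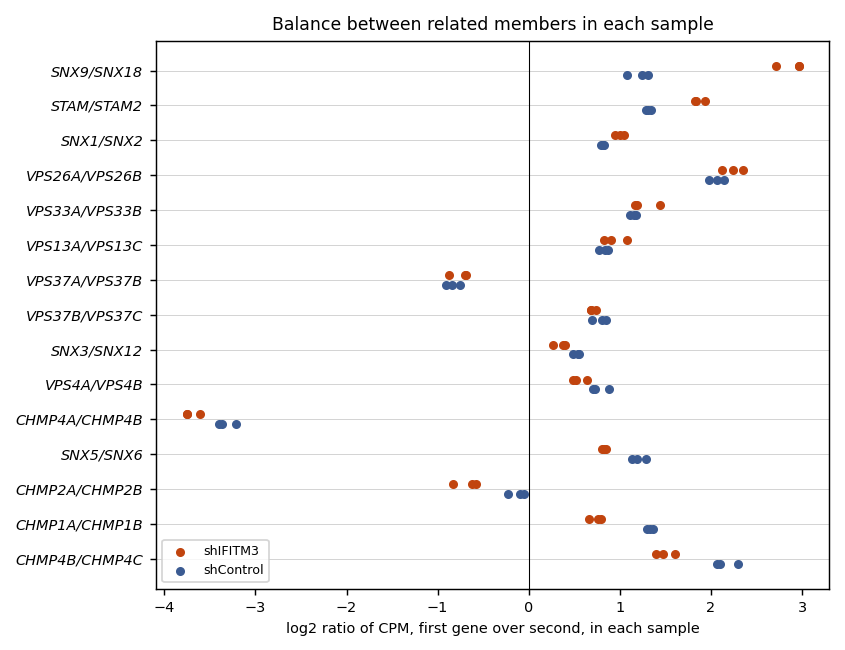
Log2 ratio of CPM between related members in each sample (horizontal axis) for 15 pairs, shIFITM3 (red) above shControl (blue) in each row. The samples separate by group most widely in SNX9/SNX18, where shIFITM3 lies near 2.88 and shControl near 1.21.

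Partners of these complexes with other names were measured as well. Of 40 such genes listed, 39 had a row, and 14 rose and 9 fell, or 59% called beside 56.1% of all genes. In the WASH complex, which builds actin on endosomes and works with retromer, 4 of 5 genes rose, or 80% beside 27.7% of all tested genes. CCDC53 (now WASHC3) had 15.5, 16.3 and 18.5 CPM in shIFITM3 and 12.3, 11.4 and 12.7 CPM in shControl, with no overlap (log2 fold change 0.48, SE 0.0963, edgeR adjusted p = 0.000179). WASH1 (0.55) and FAM21A (0.39) also passed, but both have near-identical copies, so their values are uncertain. The groups of WASH1 overlap, and its call was lost without shControl replicate 2 or 3 or shIFITM3 replicate 2 (edgeR adjusted p = 0.141, 0.0599 and 0.293). KIAA1033 (now WASHC4) rose by 0.39.

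The largest changes among partners were in the endosomal PI3 kinase, which makes the lipid that nexins and HGS bind. Its catalytic gene PIK3C3 had 25.6, 22.3 and 24.7 CPM in shIFITM3 and 16.7, 15.4 and 13.5 CPM in shControl (log2 fold change 0.67, SE 0.0882, edgeR adjusted p = 6.49e-07). UVRAG, a subunit of its endosomal form, had 43.4, 46 and 43 CPM in shIFITM3 and 30.4, 31.3 and 28.6 CPM in shControl (log2 fold change 0.55, SE 0.0601, edgeR adjusted p = 3.84e-08). The groups lie apart in both. PIK3R4 (0.11, edgeR adjusted p = 0.0557) and BECN1 (-0.03) did not pass, although PIK3R4 did under several other settings and without shIFITM3 replicate 1 (edgeR adjusted p = 0.044).

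Of 10 ESCRT partners 4 rose and 4 fell, or 80% called beside 56.1% of all tested genes. MVB12B, an ESCRT-I subunit, had 17.2, 17.8 and 18.7 CPM in shIFITM3 and 11.7, 14.1 and 13.4 CPM in shControl (log2 fold change 0.44, edgeR adjusted p = 0.00025), and UBAP1, another ESCRT-I subunit, rose by 0.40. MVB12A, the alternative to MVB12B, fell (-0.27). IST1 (0.22) and PTPN23 (0.17) rose, and VTA1, the activator of VPS4, fell (-0.29), as did USP8 (-0.21), which removes ubiquitin from receptors, and the ESCRT-II gene SNF8 (-0.15). The SNF8 call was lost without shControl replicate 3 or shIFITM3 replicate 1 (edgeR adjusted p = 0.111 and 0.0913). In the Commander complex, which recycles cargo with SNX17, 4 of 14 genes rose and 3 fell, or 50% called beside 56.1% of all tested genes. COMMD1 fell, with 8.18, 8.48 and 7.45 CPM in shIFITM3 and 11.2, 10.7 and 11.2 CPM in shControl (log2 fold change -0.45, edgeR adjusted p = 0.000933). The other falls were COMMD2 (-0.40, edgeR adjusted p = 2.72e-06) and COMMD10 (-0.28, edgeR adjusted p = 0.00547). Of these 3, only COMMD2 also passed the 1.2-fold test (glmTreat adjusted p = 0.0153). The rises were COMMD7 (0.36), DSCR3 (0.33), CCDC93 (0.14) and COMMD5 (0.17). The CCDC93 call was lost without shControl replicate 3 or shIFITM3 replicate 2 (edgeR adjusted p = 0.115 and 0.0535). The COMMD5 call was lost in DESeq2 and when any sample but shIFITM3 replicate 3 was left out (edgeR adjusted p between 0.0649 and 0.161). Among sorting receptors, which are cargoes of retromer, SORL1 fell (-0.32), and IGF2R (0.04), M6PR (0.02) and SORT1 (-0.04) did not pass. The SORL1 call was lost without shControl replicate 2 or 3 or shIFITM3 replicate 2 or 3 (edgeR adjusted p = 0.208, 0.0662, 0.0631 and 0.0919). The tether gene VIPAS39 fell (-0.25), and TGFBRAP1 did not pass (0.13), except under several other settings and without shIFITM3 replicate 1 (edgeR adjusted p = 0.0124). IST1, UBAP1, USP8, COMMD1, COMMD5, VIPAS39 and M6PR overlap other genes on the opposite strand, and MVB12A and IST1 on the same strand.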

How the data were processed

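Strand-marking mRNA libraries were made from total RNA, per the labels' protocols. The authors deposited 1 table of raw read counts per gene symbol for the 6 samples. The submitters' processing notes list HISAT2 2.2.1 and Subread 2.0.6 (featureCounts), with fastp 0.23.4, SAMtools 1.20 and FastQC 0.12.1, and the build hg38. The annotation and strand setting were not given in the sources used here. In GENCODE 29, 23 of the 74 tested members share exon bases with another row.

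The counts were fitted in R 4.3.3 with edgeR 4.0.16: filterByExpr by group (14018 genes kept), TMM scaling, glmQLFit on group, two-sided glmQLFTest, Benjamini-Hochberg adjustment over all tested genes and a threshold of 0.05. SE is the absolute log2 fold change over the square root of F. No column was left unused. Positions are from RefSeq (GRCh38.p14), exon lengths from GENCODE 29. Alternatives were other scalings, filters, DESeq2 1.42.0, limma 3.58.1 (voom), a replicate block, a thinned library, a 1.2-fold test and leaving out each sample.

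Members, role lists, partners and pairs were chosen with earlier results of these data known. Genes given with every sample's value include the 12 members with the largest absolute log2 fold change (average log2 CPM at least 2, adjusted p under 0.05), and in each role class the member with the smallest p and that with the highest CPM, plus the 6 largest partner changes. Other members with per-sample values were chosen after their values were seen. Limits from a count of 0 cover counting error only.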

Additional observations from a re-analysis of the deposited data

How the results depend on the processing

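IFITM3 knockdown kept its direction and call under all 16 alternatives, with log2 fold changes of -2.58 to -2.37 when single samples were left out. Without single samples, 20 to 26 members were higher and 11 to 13 lower, 11 to 16 partner genes higher and 8 to 9 lower, and 7124 to 7553 of all genes were called. Against a 1.2-fold change 3498 genes were called, with 11 members higher and 3 lower, and 8 partner genes higher and 1 lower, fewer because the test asks for a larger change. No called member changed sign in any alternative. Of the 38 called members 14 were called in every alternative, and 24 were lost in the 1.2-fold test, of which 9 were also lost in another alternative. Members near 0 changed sign without being called in any such fit. With single samples left out their log2 fold changes ran as follows: VPS13D -0.065 to 0.080, VPS51 -0.074 to 0.050, VPS13A -0.012 to 0.076, VPS72 -0.067 to 0.013, CHMP3 -0.51 to 0.062, SNX19 -0.022 to 0.041, SNX27 -0.0087 to 0.12, VPS33B -0.15 to 0.025, SNX13 -0.049 to 0.012, VPS16 -0.015 to 0.079 and VPS33A -0.0052 to 0.058. VPS13D also changed sign with upper-quartile scaling (-0.0053) and limma-voom (-0.0030), and VPS51 with the strict filter (0.00022) and the thinned library (0.012). The cause was not tested. Replicate numbers were shared by the groups, but same-numbered samples did not deviate together (correlations of 0.0157, 0.033 and 0.00634), and 2 of 3 shIFITM3 and 1 of 3 shControl samples correlated best with their own number. With the replicate number as a block, 24 members were higher and 14 lower, VPS9D1 being lost (adjusted p = 0.052) and VPS11 gained, with 7870 genes called. Depth was lowest in shControl replicate 1, where a count of 0 allows 0.141 CPM.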
